A study of Mus musculus with 6 samples.

Results

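The contractile genes of smooth muscle were examined in fetal mouse lungs that lack Hopx and in wild-type lungs. The set held 9 genes, Acta2, Actg2, Myh11, Tagln, Cnn1, Lmod1, Smtn, Des and Myocd, of 18193 genes named on the array. It was read by every probe set annotated to exactly 1 of these genes, 14 of 45037 probe sets. Whole microdissected lungs of Hopx -/- embryos (Hopx-null, 3 samples) and of Hopx +/+ embryos (wild-type, 3 samples) were taken at E16.5, the embryonic day. Both genotypes had a mixed strain background, and each sample was 1 Affymetrix array of total RNA. How the Hopx allele was made is not given in the sources used here, and the deletion was not restricted to a cell type in the labels.

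Smooth muscle surrounds the airways and the pulmonary vessels of the developing lung, where airway muscle forms along the growing bronchial tubes and contracts before birth. Its cells slide smooth muscle myosin along actin filaments that are coated with regulatory proteins and tied to intermediate filaments. Most of these genes are controlled by SRF (serum response factor), which binds a DNA element called the CArG box, and by its muscle cofactor myocardin, encoded by Myocd. Hopx encodes a small homeodomain protein without DNA-binding activity that can inhibit SRF in heart muscle, and the question here is how the SRF-dependent muscle genes read when Hopx is absent.

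The arrays carried the labelled difference. Hopx read 4.59, 4.59 and 4.96 in Hopx-null lungs, against 10.96, 10.59 and 10.41 in wild-type lungs (log2 values of its s_at probe set, replicates 1 to 3). The brighter a_at probe set of Hopx read 10.64, 10.35 and 10.47 in Hopx-null lungs, against 12.50, 12.44 and 12.26 in wild-type lungs, so the nulls stayed above the arrays' upper quartiles there. Its difference was -1.91 and that of the s_at probe set -5.94 (limma adjusted p = 0.0228 and 0.000375), without overlap between genotypes at either. List means of lung mesenchyme and epithelium markers exceeded the arrays' upper quartiles (9.02 to 9.05), at 11.42 to 11.61 and 10.74 to 10.91 in Hopx-null lungs, against 11.49 to 11.58 and 10.87 to 10.97 in wild-type lungs. Y-linked genes were detected in wild-type replicates 2 and 3 only, so the embryos' sex was not balanced between genotypes. Hopx-null replicate 3 had the largest difference between 3' and 5' control probe sets, a sign of RNA quality, at 1.51 for actin on the log2 scale against 1.15 to 1.25 in the other samples. Among mesenchyme markers the receptor Pdgfra differed by -0.27, Tcf21 by -0.21 and Tbx5 by 0.15, and among epithelial markers Foxa2 by -0.28, Nkx2-1 by -0.23 and Sftpb by 0.11, none called. The number of arrays limits the precision of every value below.

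None of the 9 genes differed between genotypes by the test across all probe sets, and the same held for all 14 of their probe sets. In limma (eBayes, Benjamini-Hochberg over 45037 probe sets), 0 of the 14 had an adjusted p under 0.05, beside 0.00444% of all probe sets, which were the 2 probe sets of Hopx. At an unadjusted p under 0.05 there was 1 of 14, beside 4.77% of all probe sets. The genotypes did not overlap at 0 of the 14 probe sets, beside 10.1% of all probe sets. With 14 probe sets, a count of 0 is near that share. Each gene was represented by its probe set with the highest mean, and on this reading 4 genes had a higher and 5 a lower mean in Hopx-null lungs. The positive signs of Acta2 and Cnn1 turned negative without Hopx-null replicate 3 (-0.0028 and -0.09) or without wild-type replicate 1 (-0.06 and -0.14). The median log2 difference, Hopx-null minus wild-type, was -0.05 over the 9 genes and 0.01 over all genes. The 95% intervals of the 9 genes reached at most 0.76 above and -0.76 below 0, so at these probe sets each interval excluded a change of more than 1.70-fold in either direction. With 3 samples per genotype, the smallest two-sided p of an exact permutation test is 0.1 for any single gene. In whole lungs, a change in the number of muscle cells and a change in RNA per muscle cell could not be told apart.

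**Figure D1:**
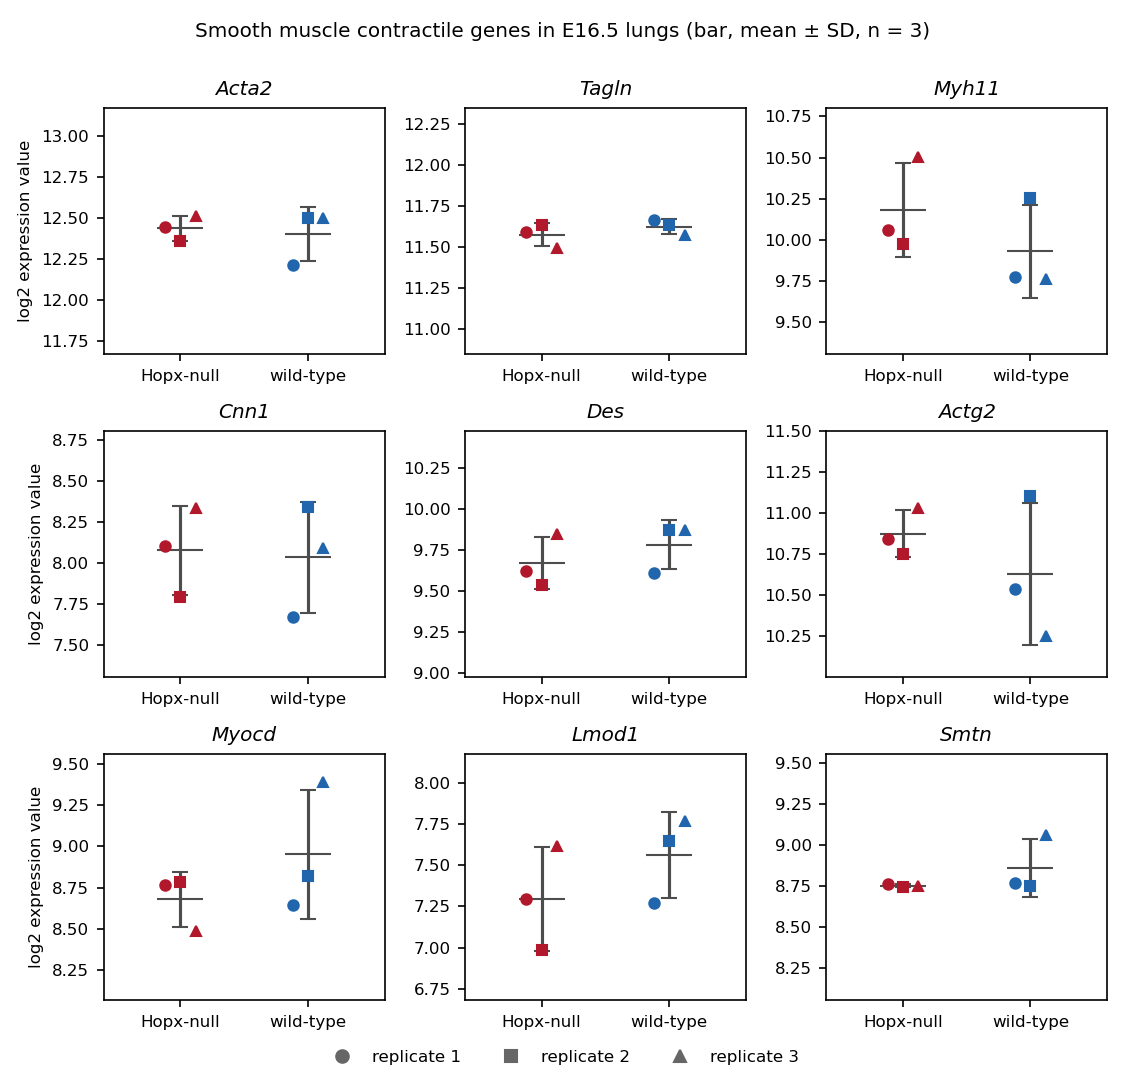
Log2 expression values of the 9 genes at their brightest probe set, by genotype, with 1 panel per gene and each panel spanning the same log2 distance. Points are samples, the marker shape gives the replicate number, and bars are the mean ± SD of 3 samples. Hopx-null and wild-type points overlap in every panel.

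The promoters of Acta2, Cnn1 and Des are shown because these 3 genes followed the rest of the set most closely over the 6 samples, as described further on. Each line gives the 110 bases before the RefSeq start site (build GRCm38.p6), 5′ to 3′ on the strand of the gene. Capitals mark CArG boxes that have 1 letter other than A or T among their 6 central letters.
Acta2, chr19:34255374-34255483, minus strand: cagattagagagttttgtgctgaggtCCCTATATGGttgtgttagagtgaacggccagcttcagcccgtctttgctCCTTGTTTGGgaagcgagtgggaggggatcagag
Cnn1, chr9:22099143-22099252, plus strand: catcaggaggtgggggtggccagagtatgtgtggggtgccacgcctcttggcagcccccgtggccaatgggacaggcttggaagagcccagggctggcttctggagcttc
Des, chr1:75360182-75360291, plus strand: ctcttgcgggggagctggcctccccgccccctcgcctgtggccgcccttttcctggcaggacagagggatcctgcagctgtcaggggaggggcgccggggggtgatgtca

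The CArG box was searched as 2 C, 6 letters that are A or T, and 2 G, a form that reads alike on both strands. Windows of 250 bases before to 50 after the start site were found for 5 of the 9 genes (Acta2, Cnn1, Des, Lmod1 and Smtn). Bases outside these windows were not searched. The strict form was in 0 of these 5 windows and in 1.63% of 32851 RefSeq windows of mouse genes. At that share, a count of 0 in 5 windows says nothing particular about the members. With 1 of the 6 central letters free, the box was in 1 of the 5 windows, that of Acta2, and in 9.98% of all windows. Acta2 held 2 such boxes that do not overlap, with first bases at -84 and -34 from the start site, and 2 or more occurred in 0.192% of all windows of 110 bases. The letters TATAA were in none of the 3 stretches printed on either strand, and in 10.9% of all stretches of that length. GC content was 51.8% in the Acta2 stretch, 65.5% in Cnn1 and 71.8% in Des.

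Both smooth muscle actins were bright on all arrays and did not differ by the test. Acta2, alpha smooth muscle actin, is the main thin-filament actin of vascular and airway muscle. Acta2 read 12.44, 12.36 and 12.51 in Hopx-null replicates 1 to 3, against 12.21, 12.50 and 12.50 in wild-type replicates 1 to 3. Wild-type replicate 1 was the lowest sample, and the other 5 lay within a narrow band. The difference was 0.03 (SE 0.11, 95% interval -0.23 to 0.30, limma adjusted p = 0.970). Dimmer probe sets of Acta2 gave larger differences, 0.31 (SE 0.15, limma adjusted p = 0.878) and 0.63 (SE 0.26). At the dimmest of them, Acta2 read 5.43, 5.23 and 4.65 in Hopx-null lungs, against 4.48, 4.85 and 4.07 in wild-type lungs, close to the arrays' lower quartiles (4.24 to 4.30). It was the 1 member probe set with an unadjusted p under 0.05 (0.0473, adjusted p = 0.878, limma).

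Actg2, gamma smooth muscle actin, is the actin typical of visceral muscle such as the gut wall. It read 10.84, 10.75 and 11.03 in Hopx-null replicates 1 to 3, against 10.53, 11.10 and 10.25 in wild-type replicates 1 to 3. The Hopx-null range lay inside the wild-type range, whose ends were wild-type replicates 2 and 3. The mean was 10.87 ± 0.14 in Hopx-null lungs and 10.63 ± 0.43 in wild-type lungs (SD, n = 3 each), a difference of 0.24 (SE 0.22, limma adjusted p = 0.890). That difference of Actg2 came to 0.05 once wild-type replicate 3 was left out, but to 0.48 once wild-type replicate 2 was. Actins of other cells also showed no call. Acta1 and Actc1, the skeletal and cardiac sarcomere actins, differed by -0.05 and 0.03, and the cytoplasmic actins Actb and Actg1 by -0.03 and -0.02.

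Myh11, the smooth muscle myosin heavy chain and the most specific marker of mature smooth muscle, had the largest positive difference of the 9 genes. It read 10.06, 9.97 and 10.51 in Hopx-null replicates 1 to 3, against 9.77, 10.25 and 9.76 in wild-type replicates 1 to 3. Hopx-null replicate 3 alone exceeded all wild-type samples, and it was also the sample with the largest 3' to 5' difference, whose part in this result was not tested. The difference was 0.25 (SE 0.19, 95% interval -0.21 to 0.71, limma adjusted p = 0.879). Leaving out Hopx-null replicate 3 gave 0.09 for Myh11, whereas leaving out wild-type replicate 2 gave 0.41. It came to 0.17 when either of the other two wild-type samples was left out. A dimmer probe set of Myh11 differed by 0.09 (SE 0.17). The non-muscle myosin heavy chains Myh9, Myh10 and Myh14, which most cells use for shape and division, differed by 0.03, 0.04 and 0.03.

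Transcripts of Tagln and Cnn1, whose proteins sit on the thin filament, differed by less than the spread between samples. Tagln encodes transgelin (SM22), an actin-binding protein that appears early in smooth muscle. Tagln read 11.59, 11.63 and 11.50 in Hopx-null replicates 1 to 3, against 11.66, 11.63 and 11.57 in wild-type replicates 1 to 3. Its 6 values spanned 0.17 on the log2 scale, the smallest span of the 9 genes, and its interval was the narrowest, -0.25 to 0.15 around -0.05 (limma adjusted p = 0.936). Cnn1, calponin, restrains the myosin motor on actin. Cnn1 read 8.10, 7.80 and 8.34 in Hopx-null replicates 1 to 3, against 7.67, 8.34 and 8.09 in wild-type replicates 1 to 3. The Hopx-null samples lay within the wild-type range, and the difference was 0.04 (SE 0.21, 95% interval -0.45 to 0.53, limma adjusted p = 0.981).

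Lmod1 and Smtn had lower means in Hopx-null lungs without passing the test. Lmod1 encodes leiomodin, which nucleates actin filaments in smooth muscle. It read 7.29, 6.98 and 7.62 in Hopx-null replicates 1 to 3, against 7.27, 7.65 and 7.77 in wild-type replicates 1 to 3. Hopx-null replicate 2 was below every other sample, and the difference was -0.26 (SE 0.20, 95% interval -0.74 to 0.21, limma adjusted p = 0.879). Leaving out Hopx-null replicate 2 gave -0.11 and leaving out wild-type replicate 3 gave -0.16, whereas it came to -0.42 when Hopx-null replicate 3 was left out, and to -0.41 when wild-type replicate 1 was. Smtn encodes smoothelin, a cytoskeletal protein of fully contractile cells. It read 8.76, 8.74 and 8.75 in Hopx-null replicates 1 to 3, against 8.77, 8.75 and 9.06 in wild-type replicates 1 to 3. Wild-type replicate 3 was apart from the other 5 samples, and without it the difference was -0.01, against -0.11 with all samples (SE 0.11, limma adjusted p = 0.896).

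Des, desmin, is the intermediate filament protein that links the contractile lattice of all muscle types. It read 9.62, 9.54 and 9.85 in Hopx-null replicates 1 to 3, against 9.61, 9.87 and 9.87 in wild-type replicates 1 to 3. In each genotype some samples were near 9.6 and some near 9.85, and the difference was -0.11 (SE 0.12, limma adjusted p = 0.901). It ranged from -0.20 without Hopx-null replicate 3 or wild-type replicate 1 to -0.05 without Hopx-null replicate 2. A dim Des probe set, below the lower quartile in 3 samples, differed by 0.12 (SE 0.15).

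Myocd, the cofactor that switches on the SRF-dependent muscle programme, had the most negative difference of the 9 genes. It read 8.76, 8.79 and 8.48 in Hopx-null replicates 1 to 3, against 8.64, 8.82 and 9.39 in wild-type replicates 1 to 3. Wild-type replicate 3 stood above the other 5 samples. The difference was -0.28 (SE 0.20, 95% interval -0.76 to 0.21, limma adjusted p = 0.878), and -0.05 without wild-type replicate 3. The second Myocd probe set, below the lower quartile in 4 samples, differed by 0.15 (SE 0.11). Myocd is also active in heart muscle. The atrial hormone gene Nppa read 5.93, 6.28 and 6.78 in Hopx-null lungs, against 5.71, 5.83 and 9.47 in wild-type replicates 1 to 3. Other cardiac markers were mixed in wild-type replicate 3. Myh7 and Myl2 had their lowest values there, 9.46 and 6.43, and Actc1 and Myl7 their highest, 12.64 and 12.21. Of 8 cardiac markers, 7 had higher means in Hopx-null lungs, and Nppa was the 1 with a lower mean. The part of heart tissue in the Myocd value was not tested.

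**Figure D2:**
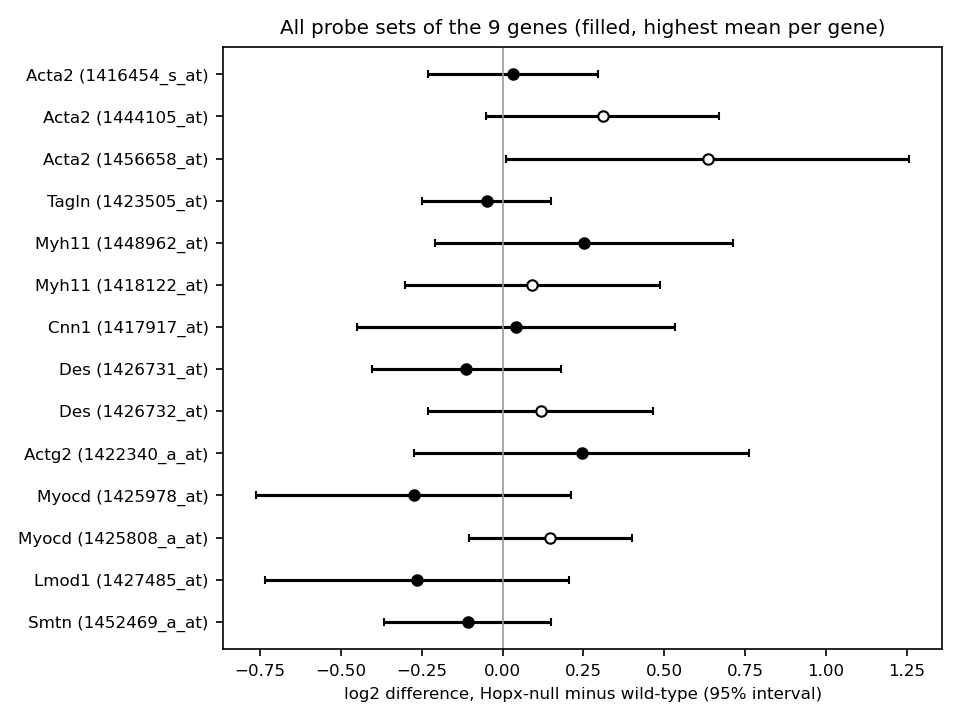
Log2 difference, Hopx-null minus wild-type, with its 95% interval for each of the 14 probe sets of the 9 genes. Filled points are the brightest probe set of a gene and open points the 5 others, all 5 of which have differences above 0, and the interval excludes 0 at 1 dim Acta2 probe set before adjustment.

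The mean of the set differed more between samples of 1 genotype than between the genotype means. The mean log2 value of the 9 genes was 9.72, 9.62 and 9.84 in Hopx-null replicates 1 to 3, against 9.57, 9.88 and 9.81 in wild-type replicates 1 to 3. The genotype means were 9.73 ± 0.11 in Hopx-null lungs and 9.75 ± 0.16 in wild-type lungs (SD, n = 3 each), a difference of -0.03. Of the 9 genes, 8 lay below their own mean in wild-type replicate 1 and 8 in Hopx-null replicate 2, whereas 8 lay above it in wild-type replicate 2. The pooled SD within genotypes had a median of 0.28 over the 9 genes, against 0.13 over genes whose mean exceeded the array median. Cnn1, Actg2, Myocd, Lmod1 and Myh11 had pooled SDs from 0.28 to 0.32, above the 85th percentile of those genes, and Tagln had 0.06.

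The genes did not vary as 1 block. Pearson correlations over the 6 samples between each gene and the mean of the other 8 describe this, with all values from the same 6 arrays. They were 0.94 for Cnn1, 0.91 for Acta2, 0.89 for Des and 0.73 for Lmod1. These 4 genes were low in wild-type replicate 1 and Hopx-null replicate 2, and higher in wild-type replicate 2 and Hopx-null replicate 3. Coefficients were 0.41 for Myh11, 0.13 for Smtn, 0.12 for Actg2, -0.07 for Myocd and -0.65 for Tagln. In wild-type replicate 3 the set divided: Myh11 and Actg2 deviated by -0.30 and -0.50 from their gene means there, while Myocd, Lmod1 and Smtn deviated by 0.58, 0.34 and 0.26.

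**Figure D3:**
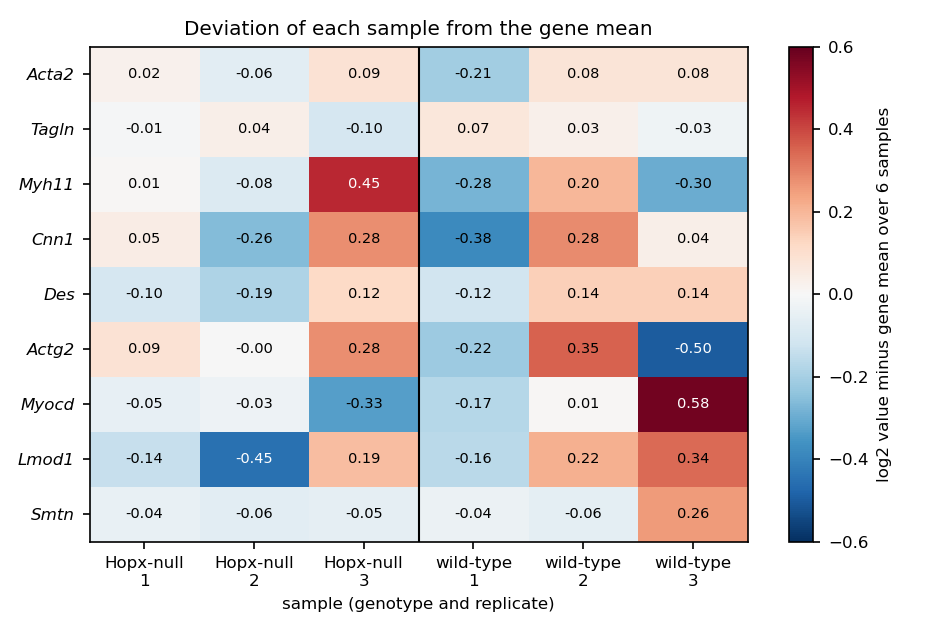
Deviation of each sample from the gene mean over 6 samples, in log2 units, for the 9 genes (rows) and the samples (columns, Hopx-null left of the line and wild-type right of it). Wild-type replicate 3 has the largest deviations of both signs, -0.50 for Actg2 and 0.58 for Myocd, and Tagln varies least.

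Cartilage and neural list means shared their lowest samples, wild-type replicate 1 and Hopx-null replicate 2, with the mean of the 9 genes. The skeletal and cardiac muscle means were also lowest in these samples. In the cardiac list Hopx-null replicate 2, at 10.2109, was close to wild-type replicate 2, at 10.2125. The pericyte and mesothelial lists did not share both. The pericyte mean was lowest in Hopx-null replicate 3, at 9.63, and the mesothelial mean in wild-type replicate 3, at 8.62. The list mean of 6 cartilage markers was 6.39, 5.37 and 6.78 in Hopx-null replicates 1 to 3, against 5.30, 8.14 and 8.41 in wild-type replicates 1 to 3. Wild-type replicate 1, Hopx-null replicate 2 and Hopx-null replicate 1 were the 3 lowest samples, in that order, both for cartilage and for the contractile mean. Acan, the cartilage proteoglycan, and the cartilage collagens Col9a3 and Col9a1 differed by -1.71, -1.66 and -1.56 without passing the test. The 4 measured neural markers of 5 listed averaged 5.64, 5.22 and 5.90 in Hopx-null lungs, against 5.32, 5.99 and 6.62 in wild-type lungs. Among them the glial factor Sox10 differed by -0.65, the receptor Ret by -0.59 and the tubulin Tubb3 by -0.24. The part of these tissues in the contractile values was not tested.

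Cardiac muscle markers averaged 10.21, 10.21 and 10.58 in Hopx-null lungs, against 9.78, 10.21 and 10.49 in wild-type lungs. The cardiac myosin Myh7 differed by 0.73, the light chain Myl2 by 0.63 and Nppa by -0.67. Skeletal muscle markers averaged between 5.59 and 5.82 in Hopx-null lungs, against 5.43 to 5.79 in wild-type lungs. The skeletal regulator Myog read below the lower quartile in all 6 samples, between 3.39 and 3.46 in Hopx-null lungs, against 3.12 to 3.37 in wild-type lungs. The skeletal troponin Tnnc2 differed by 0.23 and the embryonic myosin Myh3 by -0.20. Pericyte markers, for mural cells that share Des and some actin with smooth muscle, averaged 9.63 to 9.69 in Hopx-null lungs, against 9.73 to 9.75 in wild-type lungs, with 5 of 6 genes lower and none called. The potassium channel subunits Abcc9 and Kcnj8 differed by -0.20 and -0.14, and the proteoglycan Cspg4 by -0.16. Mesothelial markers were higher in 4 of 5 genes with none called, with Lrrn4 at 0.32, Upk3b at 0.25 and Upk1b at 0.18.

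The 2 wild-type samples with Y-linked signal, replicates 2 and 3, had the higher contractile means of their genotype. Among samples without it, the mean of the 9 genes was 9.72, 9.62 and 9.84 in Hopx-null lungs, against 9.57 in wild-type replicate 1. With the Y-linked level as a covariate the difference of this mean was 0.16, against -0.03 without the covariate, and this amounts to comparing the Hopx-null lungs with 1 wild-type sample. Under this covariate no member was called by limma, with differences of 0.23 for Acta2, 0.41 for Myh11, 0.41 for Cnn1 and 0.35 for Actg2, and Des, Myocd and Lmod1 at 0.06, 0.03 and 0.03. The part of sex in the contractile values therefore cannot be told apart from that of wild-type replicate 1.

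**Figure D4:**
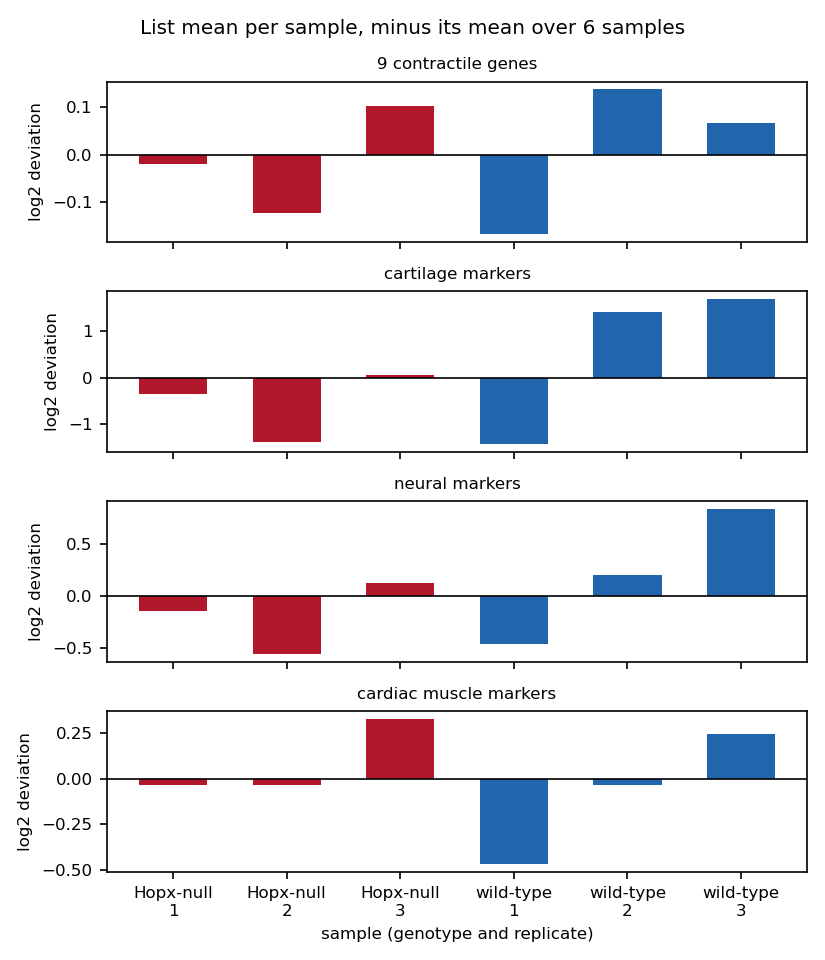
Mean log2 value of the 9 contractile genes and of the cartilage, neural and cardiac marker lists in each sample, minus the mean over the 6 samples (bars from 0; the vertical scales differ between panels). The contractile, cartilage, neural and cardiac means are lowest in wild-type replicate 1 and Hopx-null replicate 2. In the cardiac panel Hopx-null replicate 2 (-0.0361) is close to wild-type replicate 2 (-0.0345).

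Other contractile and cytoskeletal genes of smooth muscle were measured for 29 of 30 listed names. None passed the test in either direction, with 16 higher and 13 lower in Hopx-null lungs and a median difference of 0.01, equal to that of all genes at this rounding. The genotypes did not overlap at 3 of the 29 genes, Jph2, Actn1 and Tpm1, which is 10.3%, close to the 10.1% of all probe sets. The largest differences were those of Pgm5, Pdlim3 and Kcnma1. Pgm5, a cytoskeletal protein at the membrane plaques of smooth muscle, read 10.88, 10.22 and 10.44 in Hopx-null replicates 1 to 3, against 9.81, 10.57 and 9.47 in wild-type replicates 1 to 3. Wild-type replicate 3 was the lowest sample and wild-type replicate 1 the next, the same 2 samples that were lowest for Actg2. The difference of Pgm5 was 0.57 (SE 0.30, limma adjusted p = 0.878). Pdlim3, a protein of actin bundles, differed by 0.32 (SE 0.20). Kcnma1, the calcium-activated potassium channel that relaxes smooth muscle, read 7.36, 7.28 and 7.24 in Hopx-null lungs, against 6.70, 7.74 and 6.50 in wild-type lungs. Its difference was 0.32 (SE 0.31), and its dimmer probe sets gave values from -0.10 to 0.13. Its channel partner Kcnmb1 differed by 0.31 (SE 0.21) at a dim probe set with a mean of 4.64, close to the arrays' lower quartiles (4.24 to 4.30). The light chain Myl9 and its kinase Mylk, which start contraction, differed by -0.01 and 0.03.

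Regulators of the programme were measured for 16 of 17 listed names, with 7 higher, 9 lower, none called and a median of -0.02. Srf itself read 10.41, 10.82 and 10.74 in Hopx-null replicates 1 to 3, against 10.34, 10.13 and 10.41 in wild-type replicates 1 to 3. Hopx-null replicates 2 and 3 lay above all wild-type samples, while Hopx-null replicate 1 and wild-type replicate 3 were equal at this rounding. The difference was 0.36 (SE 0.14), with an unadjusted p of 0.0359 and an adjusted p of 0.878 in limma (Benjamini-Hochberg). A dimmer Srf probe set differed by 0.30. Hdac2, the histone deacetylase reported as a partner of Hopx in heart, differed by -0.35 (SE 0.32) and read 9.50 in Hopx-null replicate 3, against 10.78 and 10.61 in the other Hopx-null lungs and 10.56 to 10.77 in wild-type lungs. Klf5, a factor of proliferating smooth muscle and of epithelium, differed by -0.26 (SE 0.11, limma adjusted p = 0.878). It was the 1 regulator of 16 without overlap between genotypes, which is 6.25%, against 10.1% of all probe sets. The myocardin-related cofactors Mrtfa and Mrtfb differed by 0.09 and 0.04, and Gata6 by -0.01.

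Signals that act on lung smooth muscle were measured for all 22 listed names, with 15 higher, 7 lower, none called and a median of 0.08. Gli1, a target and effector of the hedgehog pathway through which epithelium induces airway muscle, read 8.25, 8.43 and 8.76 in Hopx-null replicates 1 to 3, against 7.46, 8.33 and 6.95 in wild-type replicates 1 to 3. Wild-type replicate 2 lay among the Hopx-null samples. The difference was 0.90 (SE 0.34), with an unadjusted p of 0.0347 and an adjusted p of 0.878 in limma (Benjamini-Hochberg). The hedgehog ligand Shh and the receptor Ptch1 differed by -0.05 and 0.15. Wnt2, a mesenchymal ligand that promotes airway muscle through Myocd, differed by 0.43 (SE 0.25), and Fgf9, a mesothelial and epithelial growth factor, by 0.39 (SE 0.26). Wild-type replicate 3 had the lowest value of the 6 samples for Gli1, Wnt2, Fgf9, Myh11 and Actg2.

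Paralogs of calponin, transgelin, leiomodin and smoothelin, 8 of 8 measured, had 5 higher, 3 lower and none called, with a median of 0.05. The striated muscle leiomodins Lmod2 and Lmod3 differed by 0.41 (SE 0.30) and 0.14 (SE 0.13), against -0.26 for Lmod1, and Tagln2 by -0.15 (SE 0.11).

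**Figure D5:**
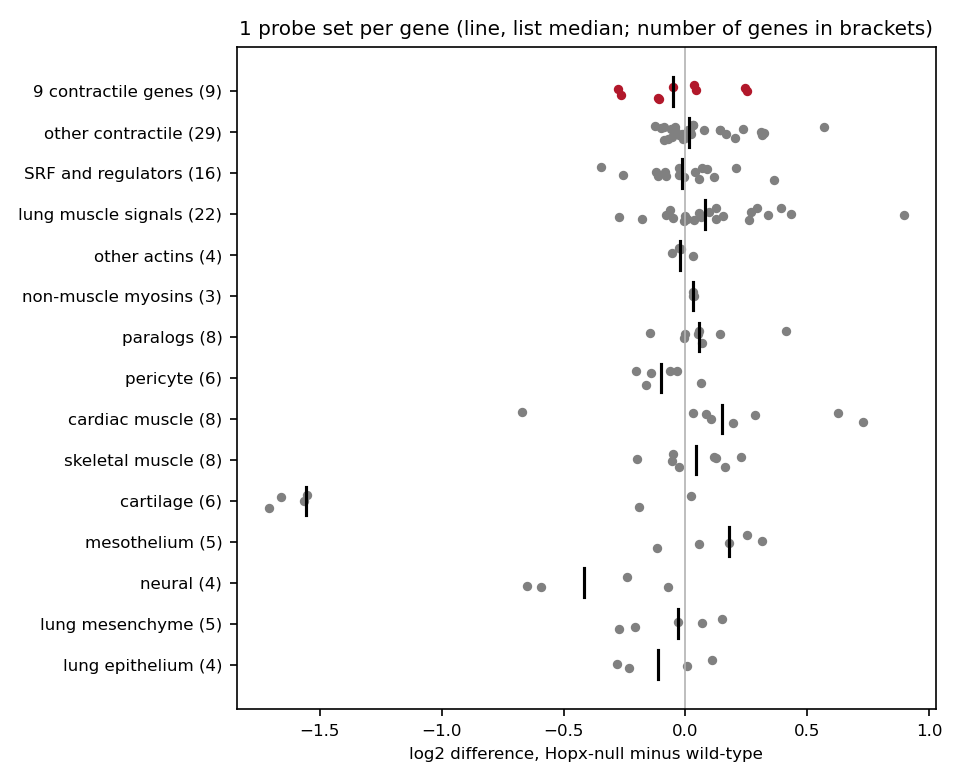
Log2 difference, Hopx-null minus wild-type, of each gene in the contractile set (red) and in 14 other lists (grey), with 1 probe set per gene and the list median as a vertical line. The 9 contractile genes lie between -0.28 and 0.25, and the cartilage list has the lowest median, -1.56.

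The genes whose pattern over the 6 samples was most like the mean of the 9 were Fam120b, Tmem201, Timm44, Klc3 and Bud31. They were taken from 11429 genes above the median level by Pearson r, which was 0.998, 0.987, 0.985, 0.985 and 0.982. With so many candidates and 6 samples, values this high describe these arrays and were given no test. Fam120b read 8.42, 8.27 and 8.57 in Hopx-null lungs, against 8.23, 8.61 and 8.53 in wild-type lungs, and differed by -0.03 between genotypes (SE 0.13).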

How the data were processed

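RNA of 6 lungs was measured on 1-colour Affymetrix arrays. Per the labels' protocols, RNA was primed from poly(T) and amplified as biotinylated cRNA, which favours 3' ends. Per the submitters' processing notes, the tools were RMA and Partek 6.6, whose roles are not stated there. The deposited values were read as log2 values, inferred from their range, since no header states the base. Distributions had been equalised, so a shift of most transcripts would not be visible. After 64 control probe sets were left out, 45037 probe sets were fitted with limma 3.58.1 in R 4.3.3 (lmFit, eBayes), with Benjamini-Hochberg adjustment over all of them and a threshold of 0.05, and its standard errors gave the intervals. By the platform annotation 34945 probe sets had 1 gene, 932 had several and 9160 had none. A gene was represented by its probe set with the highest mean. The symbols differed in 0 cases from a RefSeq table of GRCm38.p6, which also gave the promoters. The procedure was tested on simulated data.

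The members and the gene lists were chosen with earlier results of these data known. Named were all members, Hopx, from each list the 3 genes with the largest absolute difference where none passed, and the 5 genes most like the mean of the 9. Other genes named were chosen after their values were seen, as were the 3 promoters printed. Ddx3y was not among the named probe sets, so the Y-linked level is the mean of Eif2s3y, Kdm5d and Uty. In Hopx-null lungs Eif2s3y read 2.88 to 3.05, against 3.13, 11.72 and 11.56 in wild-type replicates 1 to 3. At most 0.313% of values were identical between any 2 arrays. Nothing in the labels beyond the words biological replicates says how embryos and litters relate, so p-values measure the spread between these samples.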

Additional observations from a re-analysis of the deposited data

How the results depend on the processing

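No probe set of the 9 genes was called under any alternative run (0 in each), and the 126 gene values kept their direction in 118 cases and reversed in 8. Part of the 118 could not have reversed. Testing only probe sets above the median, the trend and robust options and a block for replicate number leave each gene's difference unchanged. So does averaging the probe sets of a gene for the 5 genes read by 1 probe set. With the Y-linked level as a covariate, the difference of the mean of the 9 genes was 0.16, and Des, Myocd and Lmod1 reversed to 0.064, 0.028 and 0.033. Des was 0.0027 with the mean of all its probe sets. With 1 sample left out, Acta2 ranged from -0.062 to 0.081 and Cnn1 from -0.14 to 0.19, both negative without Hopx-null replicate 3 or wild-type replicate 1. The mean of the 9 genes then ranged from -0.12 to 0.04. Probe sets called over the whole array numbered 2, and 1 to 23 with 1 sample left out (12 when Hopx-null replicate 1 was left out, 23 when it was wild-type replicate 1). They numbered 1 with the Y-linked covariate and 1 with the replicate number as a block. Deviations of same-numbered samples correlated at -0.10, -0.12 and 0.18, within the range of differently numbered samples (-0.15 to 0.24). The numbers were therefore not taken as pairs, and the block changed no call among the 9 genes. The causes were not tested, apart from fewer samples. Dim probe sets of Des and Myocd near background carry little weight.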
